A study of Mus musculus with 4 samples.

Results

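Genes of mitosis and of the G2/M transition were followed in cDNT cells, T cells of the double-negative kind, labelled WT or Tbx21-KO. The members are 46 genes chosen by name: the mitotic cyclins and kinases, the spindle checkpoint, kinesins, the kinetochore, cytokinesis proteins and the factors that drive their transcription. Of these, 40 had a row among the 24768 genes of the deposited table. The other 6 (Ccna2, Aurkb, Cdc25b, Nuf2, Ect2 and Pttg1) are not analysed here.

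The samples were 4 mouse T cell libraries in 2 groups of 2, WT cDNT and Tbx21-KO cDNT. The labels call the second group a knockout and the design text a knockdown, and Tbx21-KO is used here. T-bet, the product of Tbx21, is the lineage factor of type 1 lymphocytes. Strain, age, culture conditions, the time of harvest and how Tbx21 was targeted are not in the labels, nor is whether the libraries of a group came from separate animals or cultures. The p-values therefore rest on the scatter between these libraries alone, and that scatter may be technical.

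A dividing cell copies its DNA in S phase and then builds up the proteins of mitosis. Cyclin B with the kinase Cdk1 starts mitosis, Polo-like and Aurora kinases shape the spindle, and the spindle checkpoint holds back the anaphase-promoting complex until every kinetochore is attached. Most of these genes are transcribed late in the cycle. In resting cells the DREAM complex represses them through a promoter element called the cell cycle genes homology region (CHR), and in dividing cells the MuvB core of that complex joins B-Myb and FoxM1 to activate them. The factor NF-Y binds CCAAT boxes in the same promoters. Activated T cells are among the fastest dividing cells of the body, so these transcripts are widely used as a measure of proliferation.

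The start regions of the members show these elements. RefSeq windows of 300 bases (250 before to 50 after an annotated start, build GRCm38.p6) were at hand for 35 of the 40 members, in 37 windows, since Bub3 and Prc1 have 2 overlapping windows each that share the same match. The CHR was searched as TTTGAA and the NF-Y box as CCAAT, each on both strands. No CHR match shared a base with a CCAAT match. A CHR match was present in 29 of 37 member windows (78.4%), against 17.9% of all 32851 windows. A CCAAT match was likewise present in 29 of 37, against 37.4% of all windows, and both were present in 67.6% of member windows, against 6.95% of all. Within the last 100 bases of the window, around the start itself, 67.6% of the member windows and 4.94% of all windows held a CHR match. The member windows had a median GC content of 60.7%, and all windows 52.7%. These matches are descriptions of the letters and not shown to be bound.

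**Figure D1:**
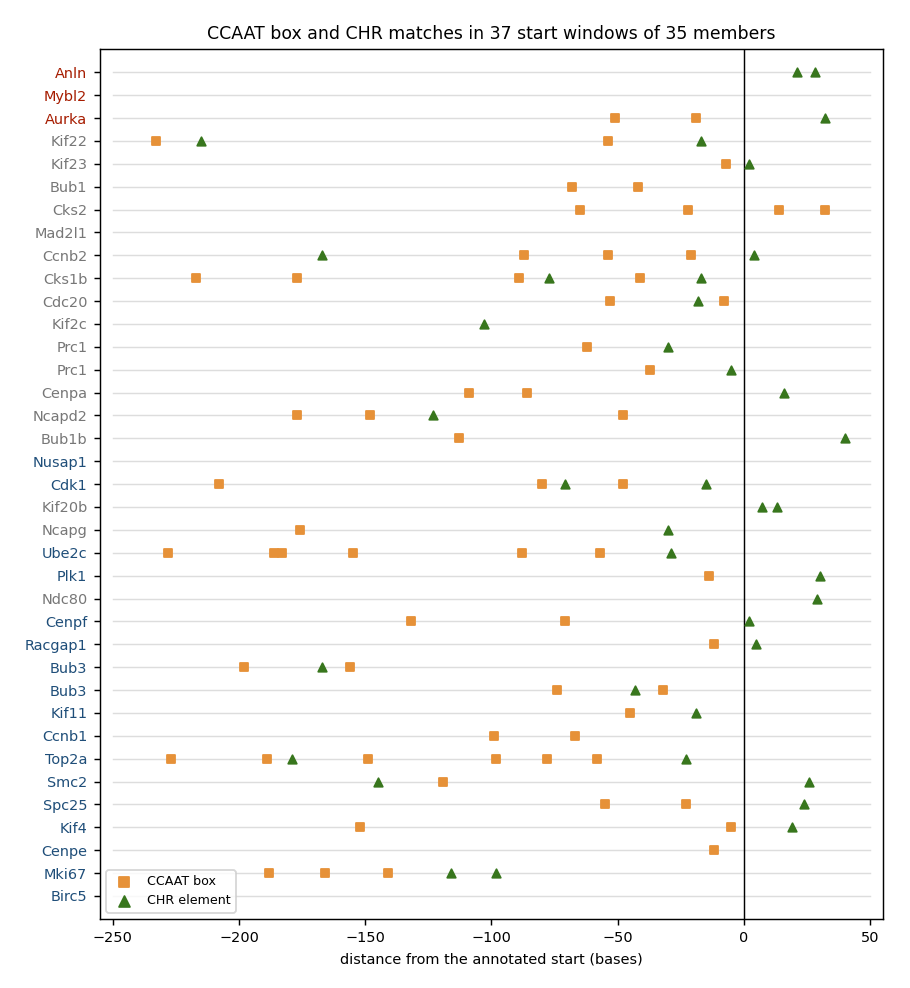
Positions of CHR matches (green triangles) and CCAAT matches (orange squares) along the 37 start windows of 35 members, in bases from the annotated start. Windows are ordered by log2 fold change, highest on top, and names are red for members called higher in Tbx21-KO, blue for lower and grey for not called. CHR matches gather near the start, and 4 members (Birc5, Mad2l1, Mybl2 and Nusap1) have neither kind of match.

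The stretches below are shown because they let the CHR be compared between 2 members that rose in Tbx21-KO (Anln and Aurka) and 8 that fell. Each is 30 bases of GRCm38.p6, read 5′ to 3′ on the strand of the gene, with the CHR match in capitals. In Kif11 and Top2a it is the reverse complement that reads along the gene, and in Anln a second match, on the reverse strand, stands in lower case just before the one in capitals.

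Anln, chr9:22389161-22389190, minus strand: tgaaattcaaatTTTGAAcggccgtggtag
Aurka, chr2:172370521-172370550, minus strand: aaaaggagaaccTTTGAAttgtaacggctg
Cdk1, chr10:69352910-69352939, minus strand: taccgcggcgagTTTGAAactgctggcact
Plk1, chr7:122159453-122159482, plus strand: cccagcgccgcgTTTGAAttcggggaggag
Cenpf, chr1:189688067-189688096, minus strand: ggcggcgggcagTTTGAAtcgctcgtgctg
Racgap1, chr15:99651634-99651663, minus strand: ctggtgcgtgatTTTGAAccggatctggcg
Spc25, chr2:69206172-69206201, minus strand: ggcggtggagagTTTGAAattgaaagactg
Kif4, chrX:100626072-100626101, plus strand: ctctgggatcaaTTTGAAacttggcggtta
Kif11, chr19:37376351-37376380, plus strand: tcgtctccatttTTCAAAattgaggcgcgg
Top2a, chr11:99024195-99024224, minus strand: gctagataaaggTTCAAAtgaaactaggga

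The next 2 stretches are the 250 bases before the start of Mki67, which fell, and of Mybl2, which rose. Capitals mark CCAAT and CHR matches on either strand. Mki67 carries 5 such matches and Mybl2 carries none. The pair is not typical of the direction: Birc5 and Nusap1, which fell, carry none in their 250 bases, and Aurka, which rose, carries 2.

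Mki67, chr7:135716380-135716629, minus strand: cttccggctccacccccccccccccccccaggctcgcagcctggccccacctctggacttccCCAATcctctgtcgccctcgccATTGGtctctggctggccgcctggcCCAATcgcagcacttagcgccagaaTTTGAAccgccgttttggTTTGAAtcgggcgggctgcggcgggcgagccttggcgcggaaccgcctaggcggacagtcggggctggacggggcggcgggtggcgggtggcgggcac
Mybl2, chr2:163054385-163054634, plus strand: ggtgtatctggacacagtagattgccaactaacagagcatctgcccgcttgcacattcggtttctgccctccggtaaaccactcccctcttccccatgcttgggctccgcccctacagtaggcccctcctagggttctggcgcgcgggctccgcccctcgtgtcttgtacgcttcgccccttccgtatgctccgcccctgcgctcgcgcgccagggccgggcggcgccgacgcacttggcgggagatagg

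All 40 members were expressed in every library, and all passed the filter for testing (a mean of at least 1 FPKM over the 4 libraries). FPKM count fragments per kilobase of a gene and are scaled to each library's size, so levels can be compared between genes. The WT means ran from 3.99 FPKM for Anln to 102.2 FPKM for Top2a, and 36 of the 40 were at 10 FPKM or more. The highest levels after Top2a were those of Cks2, Ccnb2 and Mki67, with WT means of 94.2, 87.5 and 86.0 FPKM. From the library totals that the FPKM values imply (23342603 to 24967028 reads), each member had between 886 and 23357 reads in a library. Replicates lay close together: the 2 WT libraries differed by a median of 0.05 and the 2 Tbx21-KO libraries by a median of 0.06 on the log2 scale over the members.

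**Figure D2:**
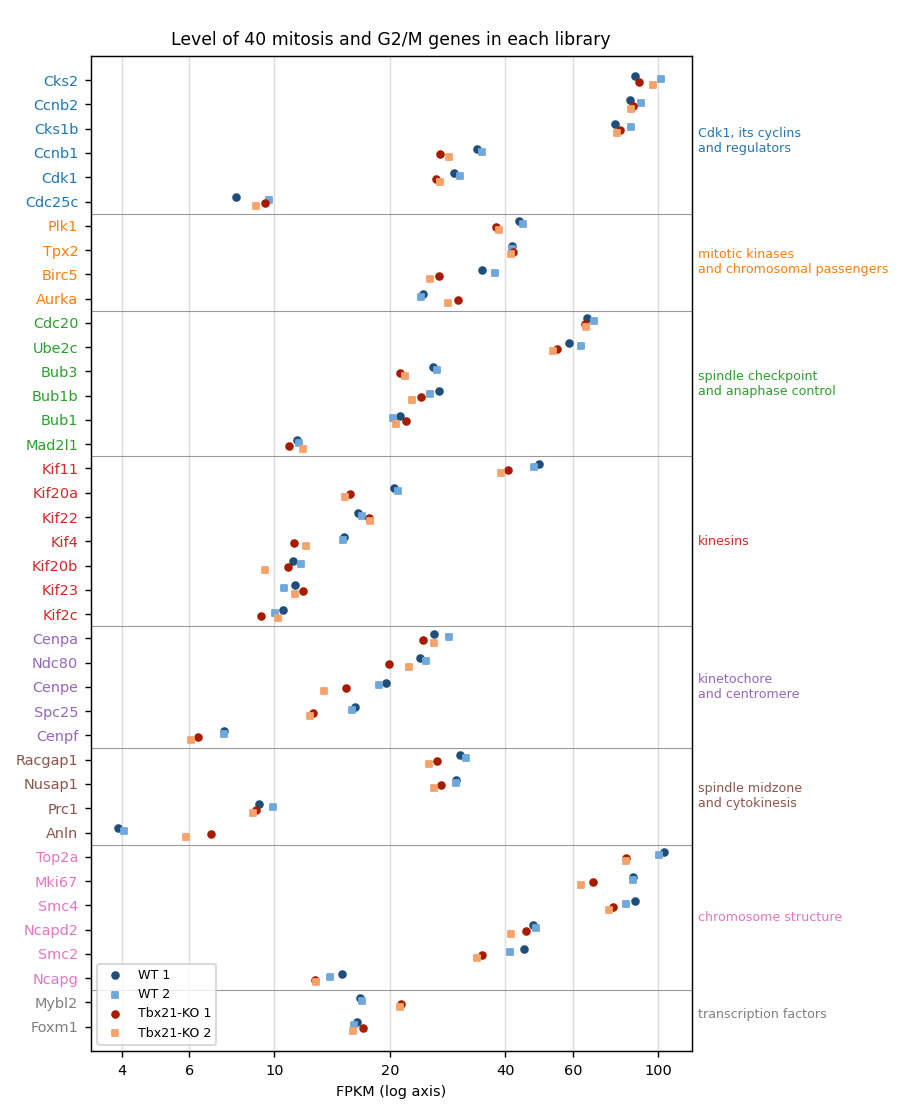
FPKM of each of the 40 members in the 4 libraries, on a log axis, grouped by role. Blue points are WT and red or orange points Tbx21-KO libraries. With this deposited scaling most members are slightly lower in Tbx21-KO, while Anln, Aurka and Mybl2 are higher in both Tbx21-KO libraries.

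With the deposited scaling, nearly all changes of the mitotic genes were small and most of the called ones were falls, a direction that turned when the libraries were scaled to T cell transcripts. In a limma fit on log2(FPKM + 1) over 11013 genes, with Benjamini-Hochberg adjustment and a threshold of 0.05, 18 of the 40 members fell, 3 rose and 19 were not called. The falls made up 45.0% of the members and the rises 7.5%, and among all genes tested 23.0% fell and 30.1% rose. Their median log2 fold change (Tbx21-KO minus WT, here and below) was -0.16, beside 0.04 for all genes tested. That background includes genes of lower level than the members. Among the 7032 genes with a mean of at least 5 FPKM, 2171 fell and 2018 rose, with a median of -0.02. In that fit 19 members fell and 3 rose. In 25 members (62.5%) both Tbx21-KO libraries lay below both WT libraries, and in 5 (12.5%) both lay above, against 35.3% and 43.7% of all genes tested. The changes ran from -0.45 for Birc5 to 0.56 for Anln. Only Anln moved by 0.5 or more, 2.5% of the members, against 24.9% of all genes tested.

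These directions depended on how the libraries were scaled to each other. T cell transcripts were also lower in Tbx21-KO: of 17 tested T cell markers 12 fell and 1 rose, with a median of -0.42. They did not move as one, with log2 fold changes from -1.41 for Cd28 to 0.53 for Cd5. The mean log2(FPKM + 1) of the T cell list minus the WT mean was -0.46 and -0.45 in Tbx21-KO 1 and 2, and that of the members -0.11 and -0.13. After rescaling to the T cell list, the median of all genes moved up by 0.40 on the log2 scale, 33 of the 40 members were called higher (82.5%) and none lower, and their median was 0.29. Under that scaling 72.6% of all genes tested were higher and 4.75% lower, and their median was 0.43. The members stood lower against the whole of the measured RNA and higher against the T cell transcripts in it. The second is not particular to the members, since 72.6% of all genes tested were higher under that scaling, with a larger median. Falls and rises in the following paragraphs are those with the deposited scaling, and none of the 18 falls was called lower with the T cell list scaling.

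The same libraries held transcripts used as markers of other cell types. Bulk RNA does not show which cells carried them, and this was not tested. All 16 granulocyte and mast cell markers and all 6 tested monocyte and macrophage markers rose, with medians of 6.74 and 2.25 on the log2 scale. In WT only 7 of the 16 and 4 of the 6 reached 1 FPKM, and the others entered the test through their Tbx21-KO levels. The summed FPKM of the granulocyte list was 16.0 and 20.1 in WT, against 10874 and 11183 in Tbx21-KO. Its share of all reads was 0.00176% and 0.00221% in WT and 1.02% and 1.04% in Tbx21-KO. No marker of that list was at 0 in both WT libraries. Immature cells of the granulocyte line also divide, and the part of such cells, if any were present, in the mitotic transcripts was not tested. Fewer cells of a type and less RNA per cell cannot be told apart in bulk RNA. The T cell marker Cd3e was at 57.2 and 56.1 FPKM in WT, against 40.2 and 39.8 FPKM in Tbx21-KO, so all 4 libraries held T cell transcripts. Cd3e marks T cells in general, and whether they were double-negative was not tested here. Tbx21 itself was at 13.2 and 11.7 FPKM in WT, against 2.29 and 2.41 FPKM in Tbx21-KO, a log2 change of -2.01 (SE 0.08, limma adjusted p = 8.21e-05).

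**Figure D3:**
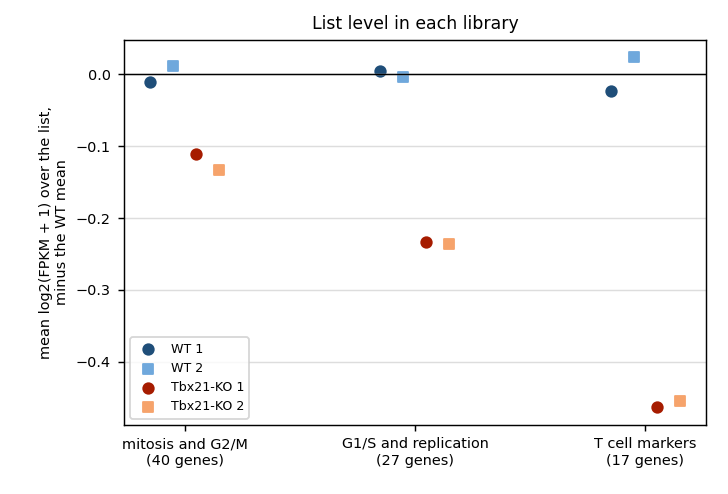
Mean log2(FPKM + 1) over the genes of 3 lists in each library, minus the mean of the WT libraries, with the deposited scaling. Both Tbx21-KO libraries lie below both WT libraries in each list, and the mitosis members, at -0.11 and -0.13, lie nearer to WT than the G1/S and replication genes (-0.23 and -0.24) and the T cell markers (-0.46 and -0.45).

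Changes of the members relative to each other were read with a scaling to the members themselves. When the libraries were rescaled to the members' own geometric mean, 6 were higher and 11 lower relative to the rest (15.0% and 27.5%, against 40.2% and 14.8% of all genes tested). That scaling centres the members on themselves, which favours calls in both directions, and it moved the median of all genes up by 0.11. The shares over all genes are therefore not a like background. The 6 were Aurka, Bub1, Kif23, Kif22, Anln and Mybl2. The 11 were Ccnb1, Birc5, Bub3, Kif11, Kif4, Kif20a, Cenpe, Spc25, Mki67, Top2a and Smc2. Aurka, Anln and Mybl2 were called higher under all 5 scalings compared. The share of all genes called higher under all 5 was not counted, and with the deposited scaling alone 30.1% of all genes tested rose. The T cell list scaling and the scaling to the members moved the median of all genes up by 0.40 and 0.11, which favours calls of higher. No member was called lower under all 5, and the 11 just named were lower under each of the 4 scalings other than that to the T cell list.

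**Figure D4:**
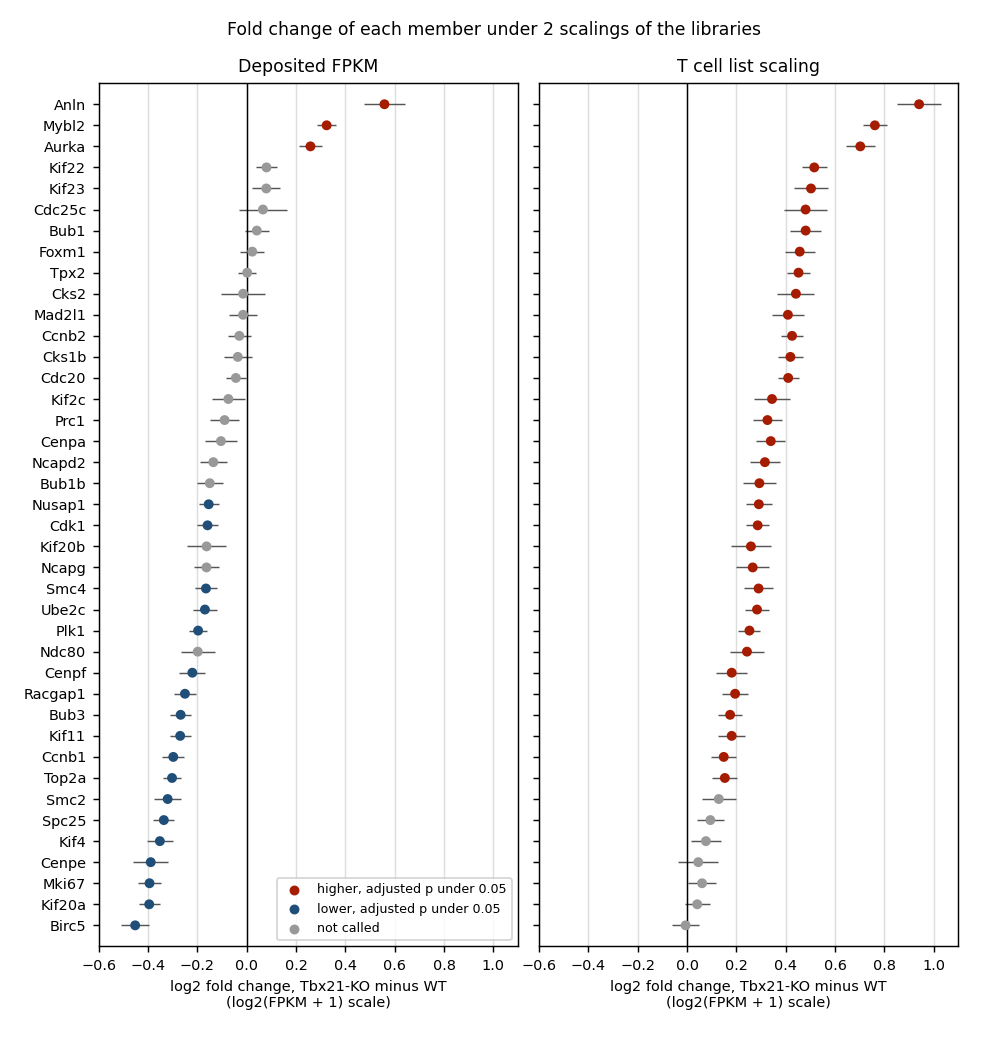
Log2 fold change of each member (points) with its standard error (bars), from the deposited FPKM on the left and after rescaling to the T cell list on the right. Red points were called higher, blue points lower and grey points were not called. On the left 18 members are lower and 3 higher, on the right 33 are higher and none lower, in nearly the same order.

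Cdk1 and its regulators set the entry into mitosis, and 2 of their 6 measured genes fell while none rose. Counts by role, here and below, come from few genes, and among all genes tested 23.0% fell and 30.1% rose. Ccnb1 (ENSMUSG00000041431, GRCm38 chromosome 13, 100778650 to 100786570), which encodes cyclin B1, was at 33.8 and 34.8 FPKM in the WT libraries, against 27.0 and 28.4 FPKM in the Tbx21-KO libraries. The groups did not overlap, and the log2 change was -0.30 (SE 0.05, limma adjusted p = 0.00519). Cdk1 (ENSMUSG00000019942, chromosome 10, 69335146 to 69352938), the kinase that cyclin B switches on, was at 29.3 and 30.4 FPKM in WT, against 26.3 and 27.0 FPKM in Tbx21-KO. Both Tbx21-KO values were the lower ones, with a log2 change of -0.16 (SE 0.04, adjusted p = 0.0291). Its call was lost in 5 of 15 alternative fits, among them those without WT 2, Tbx21-KO 1 or Tbx21-KO 2 (adjusted p = 0.0972, 0.135 and 0.0887), and turned to higher in the T cell list scaling. Ccnb2, the other B-type cyclin, was at 84.5 and 90.5 FPKM in WT, against 86.2 and 85.0 FPKM in Tbx21-KO, so the groups overlapped, and its log2 fold change was -0.03. The small Cdk-binding proteins Cks1b and Cks2 had log2 fold changes of -0.04 and -0.01. Cdc25c, a phosphatase that activates Cdk1, was at 7.92 and 9.69 FPKM in WT, against 9.47 and 8.98 FPKM in Tbx21-KO, with a log2 fold change of 0.07, and was not called.

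Among the mitotic kinases and their partners, Aurka rose while Birc5 and Plk1 fell. Aurka (ENSMUSG00000027496, chromosome 2, 172356190 to 172370535), the Aurora kinase of centrosomes and spindle poles, was at 24.4 and 24.1 FPKM in WT, against 30.1 and 28.3 FPKM in Tbx21-KO. Both Tbx21-KO libraries were above WT, with a log2 change of 0.26 (SE 0.05, adjusted p = 0.00906). Its call was kept in 14 of 15 alternative fits and lost without Tbx21-KO 1 (log2 fold change 0.22, adjusted p = 0.0526). Tpx2, which activates Aurora A on the spindle, was at 41.6 and 41.5 FPKM in WT, against 41.8 and 41.4 FPKM in Tbx21-KO, and its log2 fold change was 0.00159. Birc5 (ENSMUSG00000017716, chromosome 11, 117849251 to 117855743) encodes survivin, a subunit of the chromosomal passenger complex. It was at 34.8 and 37.5 FPKM in WT, against 26.9 and 25.4 FPKM in Tbx21-KO, that is 72.3% of the WT mean, the largest fall of the 40 members (log2 fold change -0.45 with SE 0.06, adjusted p = 0.00275). With the T cell list scaling it was -0.01 and not called. Plk1 (ENSMUSG00000030867, chromosome 7, 122159439 to 122169873), the Polo-like kinase, was at 43.4 and 44.3 FPKM in WT, against 37.8 and 38.5 FPKM in Tbx21-KO. The groups did not overlap, and the log2 change was -0.20 (SE 0.04, adjusted p = 0.0108). Its call was lost with scaling to the members (adjusted p = 0.192), without Tbx21-KO 1 (0.0690) and without Tbx21-KO 2 (0.0521), and turned to higher with the T cell list scaling.

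Of 6 measured genes of the spindle checkpoint and of anaphase control, 2 fell and none rose. The shares over all genes tested were 23.0% and 30.1%. Bub3, which carries Bub kinases to the kinetochore, was at 25.9 and 26.5 FPKM in WT, against 21.3 and 21.9 FPKM in Tbx21-KO (log2 fold change -0.27 with SE 0.04, adjusted p = 0.00537). Bub1, the kinase it binds, was at 21.2 and 20.4 FPKM in WT, against 22.1 and 20.8 FPKM in Tbx21-KO, so the groups overlapped, with a log2 fold change of 0.04. Ube2c, the ubiquitin-conjugating enzyme of the anaphase-promoting complex, was lower, with a log2 fold change of -0.17 (adjusted p = 0.0403). Its call was lost in 7 of 15 alternative fits, among them the replicate block and the fits without WT 2, Tbx21-KO 1 or Tbx21-KO 2 (adjusted p = 0.0591, 0.109, 0.114 and 0.170), and it turned to higher in the fit with the T cell list scaling. Bub1b, Cdc20 and Mad2l1, which form the mitotic checkpoint complex with Bub3, were not called, at log2 fold changes of -0.15, -0.04 and -0.02.

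Of the 7 kinesins, motor proteins of the spindle, 3 fell and none rose, beside 23.0% and 30.1% of all genes tested. Kif20a, a motor needed for cytokinesis, was at 20.4 and 21.0 FPKM in WT, against 15.7 and 15.3 FPKM in Tbx21-KO, with no overlap (log2 fold change -0.40 with SE 0.04, adjusted p = 0.00185). Kif4, a chromosome-bound motor, and Kif11, which pushes the spindle poles apart, also fell, with log2 fold changes of -0.35 and -0.27. Kif22, which moves chromosome arms, was at 16.5 and 16.9 FPKM in WT, against 17.6 and 17.8 FPKM in Tbx21-KO. Its Tbx21-KO libraries lay above WT, but the log2 fold change of 0.08 was not called. Kif23, Kif2c and Kif20b were not called either, at log2 fold changes of 0.08, -0.07 and -0.16.

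Of 5 kinetochore and centromere genes, 3 fell and none rose, beside 23.0% and 30.1% of all genes tested. All 5 had a log2 fold change under 0. Cenpe, the motor that slides chromosomes to the spindle equator, was at 19.5 and 18.8 FPKM in WT, against 15.3 and 13.5 FPKM in Tbx21-KO. All Tbx21-KO values lay below all WT values (log2 fold change -0.39 with SE 0.07, adjusted p = 0.00976). Spc25, a subunit of the Ndc80 complex that binds microtubules, and Cenpf also fell, with log2 fold changes of -0.34 and -0.22. Cenpf lost its call in 5 of 15 alternative fits, with scaling to the members (adjusted p = 0.139) and without each library in turn (adjusted p from 0.0689 to 0.110), and was higher with the T cell list scaling. Spc25 kept its call in 14. Ndc80 itself was not called (log2 fold change -0.20, adjusted p = 0.0655), and was called lower in the fit with the replicate block (adjusted p = 0.0419). Cenpa, the histone H3 variant of centromeres, was at 26.0 and 28.5 FPKM in WT, against 24.4 and 26.1 FPKM in Tbx21-KO, so the groups overlapped, with a log2 fold change of -0.10.

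Among genes of the spindle midzone and cytokinesis, Anln rose and Racgap1 and Nusap1 fell. Anln (ENSMUSG00000036777, chromosome 9, 22332012 to 22389188) encodes anillin, the scaffold that ties actin, myosin and septins into the contractile ring. It was the lowest member by level, at 3.92 and 4.05 FPKM in WT, against 6.84 and 5.88 FPKM in Tbx21-KO. Both Tbx21-KO libraries were above WT, at 1.59 times the WT mean, although these differed from each other by 0.19 on the log2 scale, the widest gap of any member in that group. The log2(FPKM + 1) scale makes changes of low genes look smaller, and on it the difference was 0.56 (SE 0.08, adjusted p = 0.00479), and the call was kept in all 15 alternative fits. Racgap1, a regulator of the small GTPase RhoA at the division plane, was at 30.6 and 31.6 FPKM in WT, against 26.6 and 25.3 FPKM in Tbx21-KO (log2 fold change -0.25 with SE 0.05, adjusted p = 0.00939). Its call was lost with scaling to the members (adjusted p = 0.0566) and without Tbx21-KO 2 (0.0566), and it was higher with the T cell list scaling. Nusap1, a microtubule bundling protein, was lower, with a log2 fold change of -0.15, and lost its call in 6 of 15 alternative fits, those without each library in turn among them (adjusted p from 0.0710 to 0.138). Prc1, which bundles midzone microtubules, was not called, with a log2 fold change of -0.09.

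Of 6 measured genes for proteins that shape mitotic chromosomes, 4 fell with the deposited scaling, against 23.0% of all genes tested. After rescaling to the T cell list 4 were called higher (Top2a, Smc4, Ncapg and Ncapd2), against 72.6% of all genes tested. Mki67 (ENSMUSG00000031004, chromosome 7, 135689784 to 135716361), which encodes the proliferation marker Ki-67 that coats mitotic chromosomes, was at 86.2 and 85.9 FPKM in WT, against 67.7 and 62.9 FPKM in Tbx21-KO, or 75.9% of WT (log2 fold change -0.39 with SE 0.05, adjusted p = 0.00265). Top2a, the topoisomerase that untangles sister chromatids, and the condensin core subunits Smc2 and Smc4 also fell, with log2 fold changes of -0.30, -0.32 and -0.17. Smc4 lost its call in 7 of 15 alternative fits, among them those without WT 1, Tbx21-KO 1 or Tbx21-KO 2 (adjusted p = 0.0892, 0.103 and 0.147), and Smc2 lost it without Tbx21-KO 2 (0.0504). The condensin I subunit Ncapd2 was at 47.3 and 48.0 FPKM in WT, against 45.3 and 41.4 FPKM in Tbx21-KO and was not called (log2 fold change -0.14), and neither was Ncapg (-0.16).

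The 2 transcription factors differed. Mybl2 (ENSMUSG00000017861, chromosome 2, 163054687 to 163084688), which encodes B-Myb, was at 16.7 and 16.9 FPKM in WT, against 21.3 and 21.2 FPKM in Tbx21-KO. It rose to 1.27 times the WT mean, with a log2 change of 0.32 (SE 0.04, adjusted p = 0.00269), and kept its call in all 15 alternative fits. Foxm1, the forkhead factor that acts with it, was at 16.4 and 16.1 FPKM in WT, against 17.1 and 16.0 FPKM in Tbx21-KO. Its groups overlapped, with a log2 fold change of 0.02.

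Ratios between 2 members within a library do not change with library scaling. For 13 pairs of partners, paralogs or successive factors, chosen with the values known, they are given without a test, since the smallest two-sided p that an exact permutation test of 2 libraries against 2 allows is 0.33. The ratio of Kif23 to Racgap1, the 2 subunits of centralspindlin, was 0.370 and 0.334 in WT and 0.447 and 0.448 in Tbx21-KO. The ratio of Aurka to Tpx2 went from 0.587 and 0.580 to 0.720 and 0.684. That of cyclin B1 to cyclin B2 transcripts (Ccnb1 to Ccnb2) went from 0.400 and 0.384 to 0.313 and 0.335, and the groups did not overlap in any of these 3 pairs. Nor did they for Ccnb1 to Cdk1, Ndc80 to Spc25, Bub1 to Bub3 and Kif4 to Prc1. Such separation is common here: among all genes tested, Tbx21-KO lay wholly above WT in 43.7% and wholly below in 35.3%. The ratio of Anln to Racgap1 was 0.128 in both WT libraries and 0.257 and 0.232 in Tbx21-KO, and that of Foxm1 to Mybl2 went from 0.985 and 0.953 to 0.800 and 0.756. The condensin core ratio of Smc2 to Smc4 went from 0.514 and 0.501 to 0.455 and 0.453. By contrast, the ratios of Cks1b to Cks2, of Ncapg to Ncapd2 and of Mad2l1 to Cdc20 overlapped between groups, with Tbx21-KO means at 0.986, 0.975 and 1.02 times the WT means.

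**Figure D5:**
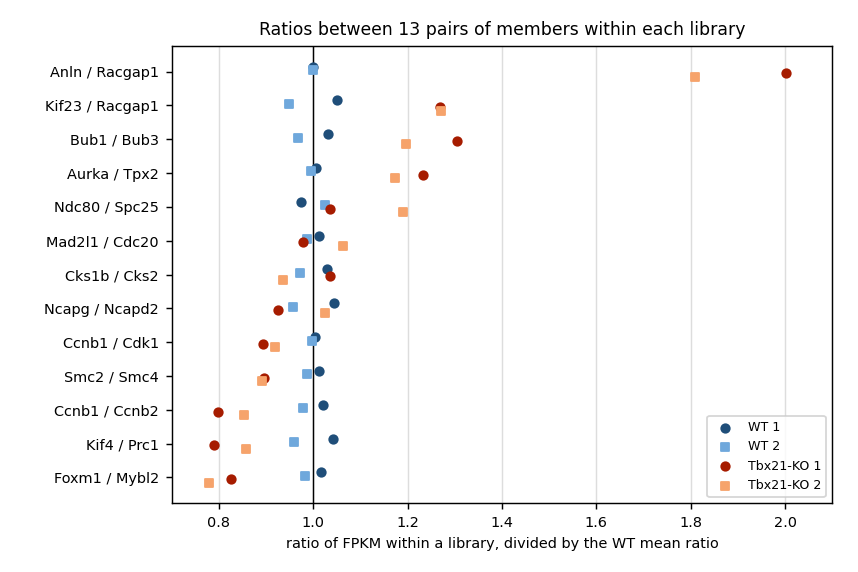
Ratio of FPKM between 2 members within each library, divided by the mean ratio of the WT libraries, for 13 pairs. Blue points are WT and red or orange points Tbx21-KO libraries. The ratio of Anln to Racgap1 is the highest, at 1.91 times WT on average, and Foxm1 to Mybl2 the lowest, at 0.803 times.

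Start elements were spread over the 3 classes of members. Among members with a window, a CHR match was present in 2 of 3 that rose, 12 of 16 that fell and 13 of 16 that were not called. A CCAAT match was present in 1 of 3, 14 of 16 and 12 of 16. The median log2 fold change was -0.16 over the 27 members with a CHR match and -0.08 over the 8 without.

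Other genes of the cell cycle were taken from 8 lists. Their counts, here and in the paragraphs that follow, stand beside 23.0% of all genes tested that fell and 30.1% that rose. With the T cell list scaling the medians of all 8 were above 0, between 0.22 and 0.75, beside 0.43 for all genes tested. Of 41 tested genes for other kinetochore and spindle proteins, 8 fell and 5 rose, with a median of -0.05. The largest fall was that of Knl1, the kinetochore scaffold of Bub proteins, with a log2 fold change of -0.46 (adjusted p = 0.00785), and the largest rise that of Fam83d, a spindle protein, with 0.33 (adjusted p = 0.0126). Of 15 tested cohesin and further condensin genes 8 fell and 1 rose, with a median of -0.20. The extremes were Stag1, a cohesin subunit, at -0.43, and Ncapd3, a condensin II subunit, at 0.31. Of 15 anaphase-promoting complex genes 2 fell and 1 rose, with a median of 0.02. Its extremes were the conjugating enzyme gene Ube2s at -0.26 and the subunit gene Cdc16 at 0.22. Of 14 genes for cell cycle kinases and the G2/M checkpoint 3 rose and 1 fell. The checkpoint kinase gene Chek2 was at 2.44 and 2.73 FPKM in WT, against 5.35 and 6.35 FPKM in Tbx21-KO (log2 fold change 0.93 with SE 0.10, adjusted p = 0.00166), while Chek1 fell, with a log2 fold change of -0.29.

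The regulators of the members' promoters moved both ways. Of 14 tested genes of the MuvB and DREAM group and NF-Y, 5 rose and 4 fell, with a median of 0.03. Among all genes tested 30.1% rose and 23.0% fell, so calls in both directions are not particular to this list. E2f4, the E2F factor of the DREAM complex, was at 98.0 and 102.3 FPKM in WT, against 66.1 and 63.0 FPKM in Tbx21-KO, with no overlap. Its log2 change was -0.63 (SE 0.05, adjusted p = 0.000494), and it was also lower with the T cell list scaling. Tfdp2, a dimerization partner of E2F factors, had the largest rise, with a log2 fold change of 0.64.

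Genes of the earlier phases differed by list. Of 27 tested G1/S and DNA replication genes, 20 fell and 1 rose, with a median of -0.22. The largest fall was that of Ccne1, cyclin E1, with a log2 fold change of -0.58, and the gene that rose was E2f2, at 0.49. With the T cell list scaling 16 of these 27 were higher and none lower, against 72.6% and 4.75% of all genes tested. Of 6 G1 cyclin, kinase and related genes 4 rose and 1 fell: Rb1, the retinoblastoma protein that holds back E2F factors, had the largest rise, at 0.76, and E2f3 fell, at -0.38. Of 11 tested inhibitors and quiescence genes 4 rose and 4 fell. Cdkn1a, the Cdk inhibitor that p53 induces, was at 95.5 and 93.4 FPKM in WT, against 134.4 and 135.5 FPKM in Tbx21-KO (log2 fold change 0.51 with SE 0.04, adjusted p = 0.000447). Foxo1, a factor of resting lymphocytes, fell from 16.2 and 15.3 FPKM to 8.05 and 7.63 FPKM, with a log2 fold change of -0.93, and was also lower with the T cell list scaling.

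Leaving out 1 library moved the count of falls. It was 15 without either WT library, 12 without Tbx21-KO 1 and 11 without Tbx21-KO 2, where the lone library of a group is taken to vary like the other group. The use of strand in counting is not stated in the sources at hand, and 16 members overlap an annotated gene on the opposite strand, Kif20a with Cdc23 and Kif4 with Pdzd11 among them. In 10 members over 10% of all 50-base stretches of their transcripts also occur, read on either strand, in transcripts of other genes. The highest shares are those of Cks2 (29.7%, in the annotated gene Gm15452), Kif20a (25.2%) and Ccnb1 (23.4%, mostly in the pseudogene Ccnb1-ps). All or most of the shares of Kif20a, Kif4, Ube2c, Ncapg and Cdc25c lie in an overlapping gene on the opposite strand. Mybl2 is among the 10, with 19.3%, and so is Plk1. The values of these genes are uncertain to the extent that reads were shared, which for genes on the opposite strand depends on the strand setting.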

How the data were processed

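FPKM values for 4 libraries were deposited by the authors, 1 column per library and not pooled. The submitters' processing notes list GRCm38 and mm10 as builds. The aligner, counter, annotation and strand setting: not given in the sources used here. RNA was column-purified and made into mRNA libraries with a kit, per the labels' protocols. Of 24769 rows the last was incomplete and not used. Ensembl IDs were matched to GENCODE release M21 (24720 of 24768).

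Genes with a mean of 1 FPKM or higher were fitted on the log2(FPKM + 1) scale (pseudocount 1) by limma 3.58.1 in R 4.3.3 with a variance trend, Tbx21-KO against WT, and p-values were adjusted over all 11013 genes. With summed exon lengths, 96.8% to 97.3% of FPKM values under 20 reads were whole reads within 0.1 read in each library, which gives the library totals. These need not be the full sequencing depth. Depth sets the precision: the lowest member had 886 reads. The motif search, read recovery and limma fit were tested on simulated data. These held no large shift in composition between groups, so the choice of scaling was not tested by them.

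The members and gene lists were chosen with earlier results of these data known. Every member is named with its log2 fold change. Values per library are given for Mki67, Cdk1, Ccnb1, Plk1 and Aurka, members that moved by 0.5 or more, and the most positive and most negative member of each of 8 roles. From the 8 cell cycle lists and the T cell list the largest called rise and fall are named. Tpx2, Ccnb2, Chek2, E2f4, Cdkn1a, Foxo1 and Cd3e have values per library added after they were seen. Alternatives covered pseudocounts, filters, 4 other scalings, the variance model, a replicate block, voom on recovered reads and each library left out. Of the lists of other cell types, 3 of 5 tested dendritic cell genes and all 3 tested B cell genes rose, and Tfrc, the 1 tested gene of the erythroid list, fell.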

Additional observations from a re-analysis of the deposited data

How the results depend on the processing

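Tbx21 stayed called lower in all 15 alternative fits (log2 fold change -1.25 to -2.40), and 18 of the 40 members fell and 3 rose with a pseudocount of 0.1 or 5. With the T cell list scaling the members' median turned to 0.29, with 33 higher and 0 lower, and 7994 of all genes were higher and 523 lower. Log2 fold changes turned positive under that scaling in 30 members: Kif20a 0.041, Cenpe 0.045, Mki67 0.061, Kif4 0.076, Spc25 0.095, Smc2 0.13, Ccnb1 0.15, Top2a 0.15, Bub3 0.17, Kif11 0.18, Cenpf 0.18, Racgap1 0.19, Ndc80 0.24, Plk1 0.25, Kif20b 0.26, Ncapg 0.27, Ube2c 0.28, Cdk1 0.29, Smc4 0.29, Nusap1 0.29, Bub1b 0.29, Ncapd2 0.32, Prc1 0.33, Cenpa 0.34, Kif2c 0.34, Mad2l1 0.41, Cdc20 0.41, Cks1b 0.42, Ccnb2 0.43 and Cks2 0.44. With the scaling to the members 6 were higher and 11 lower, 1631 of all genes were lower, and the members' median was -0.036. Log2 fold changes changed sign in Cenpa 0.016, Prc1 0.023, Kif2c 0.039, Cdc20 0.079, Cks1b 0.087, Ccnb2 0.094, Mad2l1 0.10 and Cks2 0.11. The members' median was -0.13 with a pseudocount of 5 and -0.20 with median-of-ratios scaling, where Tpx2 -0.042, Foxm1 -0.020 and Bub1 -0.0018 changed sign. After quantile normalization 3801 of all genes were lower, and Cdc25c -0.044 and Foxm1 -0.0099 changed sign. At a mean of at least 5 FPKM, with 7032 genes tested, 2018 were higher and 2171 lower. When 1 library was left out, 2 to 3 members were higher and 11 to 15 lower, the median ran from -0.17 to -0.13, and members near 0 changed sign, with ranges of -0.079 to 0.019 for Ccnb2, -0.065 to 0.20 for Cdc25c, -0.11 to 0.034 for Cks1b, -0.13 to 0.097 for Cks2, -0.020 to 0.064 for Foxm1, -0.073 to 0.043 for Mad2l1 and -0.0055 to 0.0087 for Tpx2. The causes were not tested.

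Same-numbered libraries did not deviate together (correlation -0.02 over 11013 genes), so the replicate numbers were not taken as pairs. With the replicate block 19 members were lower and 3 higher, since Bub1b and Ndc80 gained and Ube2c lost a call (adjusted p 0.0478, 0.0419 and 0.0591). With voom on recovered reads 23 were lower and 3 higher. In the main fit the smallest called change of a member was -0.15 on the log2 scale, and no smaller one was called there with 2 libraries a group. With a pseudocount of 5 Cdk1 was called at -0.14 (limma adjusted p = 0.0282).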
